A study of Mus musculus with 12 samples.

Results

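The 10 genes described here encode the core transcription factors and cofactors of the red cell lineage. They are Gata1, Gata2, Klf1, Tal1, Nfe2, Zfpm1, Lmo2, Ldb1, Sox6 and Bcl11a, and they were taken by name from the 30791 mouse genes that a feature of the array named. Each had 1 feature, and all 10 were among the 20187 genes that passed a filter on dim features. They were measured in erythroblasts sorted by flow cytometry from the spleens of male mice, 3 days after phenylhydrazine, which destroys circulating red cells and sets off rapid red cell production in the spleen. For 3 months beforehand the diet of the mice was either adequate in selenium or deficient in it, and from each diet proerythroblasts, the earliest morphologically recognisable red cell precursors, and basophilic erythroblasts, the next stage, were sorted. The 4 groups were therefore adequate proerythroblasts, deficient proerythroblasts, adequate basophilic erythroblasts and deficient basophilic erythroblasts, with 3 arrays in each and 12 in all. Every group had received phenylhydrazine, so that no unstressed spleen served as a control. The labels do not say whether arrays came from separate or pooled mice, or name the strain, so p-values measure the spread between these samples, which may in part be technical.

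GATA1 is a zinc finger factor that binds the letters GATA in DNA and switches on most genes of the mature red cell. GATA2 occupies many of the same sites in progenitors and gives way to GATA1 as cells mature, and FOG1, the product of Zfpm1, is the cofactor that GATA1 needs for much of its activation and repression. TAL1 binds E-box sequences with an E-protein partner and is joined to GATA1 at red cell enhancers by LMO2 and by LDB1, whose self-association brings enhancers to promoters. KLF1 binds CACCC elements, among them those of the adult beta-globin promoter, and NFE2 is the p45 subunit that pairs with small MAF proteins at the globin locus control region. SOX6 and BCL11A silence embryonic and fetal globin genes. Spleen erythroblasts made under anaemic stress mature through the same sequence of sorted stages as those of the marrow.

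Of the promoter windows of these genes, 4 hold the letters that GATA1 recognises, and they are shown because they place that sequence beside genes that did and did not move with diet. Of the 10 genes, 8 were matched in RefSeq to 17 windows, each the 250 bases upstream of a transcription start (assembly GRCm38.p6), and Nfe2 and Lmo2 were not. Klf1 had 1 window, and the GATA letters were in 1 of 2 windows of Tal1, 1 of 3 of Ldb1 and 1 of 6 of Sox6. The other windows of these genes held no GATA match. The windows are chr8:84901732-84901981 on the plus strand for Klf1, chr4:115056176-115056425 on the plus strand for Tal1, chr19:46037071-46037320 on the minus strand for Ldb1 and chr7:115846141-115846390 on the minus strand for Sox6. Each is printed 5′ to 3′ towards its start site, with capitals for a GATA match (AGATAA or AGATAG or TGATAA or TGATAG, on either strand) and for a match to the KLF letters CCNCNCCC on either strand.
Klf1: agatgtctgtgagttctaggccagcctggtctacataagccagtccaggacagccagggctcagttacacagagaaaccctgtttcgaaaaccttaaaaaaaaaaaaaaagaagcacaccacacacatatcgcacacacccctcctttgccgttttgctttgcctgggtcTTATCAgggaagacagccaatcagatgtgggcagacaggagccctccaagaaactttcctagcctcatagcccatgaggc
Tal1: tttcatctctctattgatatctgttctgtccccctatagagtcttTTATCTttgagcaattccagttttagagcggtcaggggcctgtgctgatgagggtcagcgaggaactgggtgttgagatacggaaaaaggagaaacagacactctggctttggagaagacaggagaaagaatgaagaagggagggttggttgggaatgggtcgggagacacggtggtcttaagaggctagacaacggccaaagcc
Ldb1: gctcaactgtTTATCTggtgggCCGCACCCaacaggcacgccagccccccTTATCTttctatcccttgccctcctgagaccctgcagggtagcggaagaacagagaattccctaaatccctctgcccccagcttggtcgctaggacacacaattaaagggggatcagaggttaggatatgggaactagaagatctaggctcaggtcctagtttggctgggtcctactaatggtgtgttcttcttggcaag
Sox6: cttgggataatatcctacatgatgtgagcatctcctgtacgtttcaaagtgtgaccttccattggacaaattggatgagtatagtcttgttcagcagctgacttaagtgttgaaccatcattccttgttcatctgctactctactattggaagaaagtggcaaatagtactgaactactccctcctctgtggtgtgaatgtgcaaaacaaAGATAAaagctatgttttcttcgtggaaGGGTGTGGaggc
In the Klf1 window the GATA letters lie 80 to 75 bases before the start site, and in the Tal1 window 205 to 200 bases before it. The Ldb1 window has a pair of GATA matches, whose first bases lie 240 and 200 bases before the start, with a KLF match between them from 228 to 221. In the Sox6 window the GATA match lies 40 to 35 bases and the KLF match 12 to 5 bases before the start. The 4 windows make up 23.5% of the 17, and 26.5% of all 32851 windows in the RefSeq table held a GATA match. KLF letters were in 11 of the 17 windows against 45.9% of all windows, and the E-box letters CANNTG, which overlapped no printed capital, in 10 of the 17 against 66.2%. A match describes the letters only, and binding was not measured.

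The deposited log2 values of the 12 arrays were used as they stand. Among 23 control features without a genomic target, the median level was 3.31 to 3.53 on the log2 scale in the 6 proerythroblast arrays and 3.63 to 4.70 in the 6 basophilic arrays, the highest being replicate 2 of the adequate diet at 4.19 and of the deficient diet at 4.70. The interquartile range over all features was 2.59 to 2.66 in proerythroblasts and 2.17 to 2.49 in basophilic erythroblasts. These 2 basophilic arrays therefore stood apart, and results that change without them are given both ways. All 6 basophilic arrays also had a higher control median and a narrower interquartile range than all 6 proerythroblast arrays. Stage and array quality therefore cannot be told apart in the stage differences. Replicate 3 of the deficient basophilic group has a free text description that names proerythroblasts, although its title and cell type field name basophilic erythroblasts. It was kept as basophilic, and over all genes its correlation was 0.983 to 0.986 with the 3 other basophilic arrays outside replicate 2, 0.91 to 0.953 with the 2 basophilic arrays of replicate 2, and 0.95 to 0.969 with the 6 proerythroblast arrays. Of 12 red cell marker genes 9 had a feature of their own, and their mean log2 level was 10.47 to 12.04 over the 12 arrays, with the erythropoietin receptor gene Epor at 9.46 to 10.88 and the transferrin receptor gene Tfrc at 9.39 to 11.11.

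In proerythroblasts, selenium deficiency went with higher Nfe2 and Sox6 and lower Ldb1, while Gata1, Klf1, Tal1, Zfpm1, Lmo2 and Gata2 did not pass the test. Nfe2 was 2.31-fold and Sox6 2.1-fold higher, and Ldb1 was 1.65-fold lower. Thus 3 of the 10 genes passed a Benjamini-Hochberg adjusted p of 0.05 in limma, 2 higher and 1 lower, where 4.02% of the 20187 genes tested passed, 1.27% higher and 2.75% lower. Bcl11a was lower by 2.17-fold, just short of the threshold. In these bulk samples a smaller share of cells with a transcript and less of it per cell cannot be told apart.

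Nfe2 read 7.88, 8.38 and 8.01 on the log2 scale in the 3 adequate proerythroblast arrays and 9.43, 8.83 and 9.63 in the deficient ones. Every deficient array lay above every adequate one. The log2 difference was 1.21 (SE 0.25, 95% interval 0.67 to 1.74, limma adjusted p = 0.0178). Sox6 read 9.19, 9.20 and 8.85 on the adequate diet and 10.34, 9.95 and 10.17 on the deficient diet. Its groups were also fully apart, with a gap wider than the range within either. The log2 difference was 1.07 (SE 0.19, 95% interval 0.66 to 1.49, limma adjusted p = 0.00861).

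Ldb1, the bridging cofactor of the TAL1 complex, moved the other way. Its log2 levels were 9.41, 9.38 and 9.21 in adequate and 8.65, 8.61 and 8.57 in deficient proerythroblasts. The deficient arrays had an SD of 0.04 and all lay below the adequate ones. The log2 difference was -0.72 (SE 0.14, 95% interval -1.02 to -0.42, limma adjusted p = 0.0124). Bcl11a read 9.02, 9.37 and 9.01 in adequate and 8.44, 7.60 and 8.01 in deficient proerythroblasts, again without overlap. Its log2 difference of -1.12 (SE 0.31, 95% interval -1.79 to -0.45) had a limma adjusted p of 0.0705. With the replicate number as a block within each stage the difference passed, at an adjusted p of 0.0072, and it passed at 0.00785 without replicate 2 of both basophilic groups, which enter only through the shared estimate of spread. Most settings did not call it: Bcl11a passed in 5 of 22 alternatives and in 1 of the 12 fits with 1 array left out. Its highest limma adjusted p was 0.28.

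The GATA factors and their cofactor did not pass. Gata1 read 8.67, 8.66 and 8.36 on the adequate diet and 8.72, 8.53 and 8.66 on the deficient diet, and its log2 difference was 0.07 (SE 0.19, 95% interval -0.35 to 0.49, adjusted p = 0.998). Gata2 differed by -0.08 (SE 0.20, interval -0.53 to 0.37) on the log2 scale. For Zfpm1 the deficient arrays, 11.03, 10.84 and 10.83, all exceeded the adequate ones, 10.73, 10.76 and 10.35, but the log2 difference of 0.29 (SE 0.24, adjusted p = 0.814) did not pass. Klf1 differed by -0.11 (SE 0.33, interval -0.84 to 0.62) and Tal1 by 0.31 (SE 0.26, interval -0.27 to 0.88) on the log2 scale. Lmo2, the adaptor between TAL1 and LDB1, differed by -0.21 (SE 0.17, interval -0.59 to 0.16). The intervals of Klf1 and Tal1 reach beyond the size of the Ldb1 difference, so a lack of change was not shown. Without overlap between diets were 5 of the 10 genes (Nfe2, Zfpm1, Ldb1, Sox6 and Bcl11a), against 31.1% of all genes tested, 15.4% higher and 15.7% lower.

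The calls for Nfe2 and Ldb1 rested on few arrays. The adjusted p of Nfe2 reached 0.0944 without adequate proerythroblast replicate 1, 0.062 without replicate 3, 0.0614 and 0.0964 without deficient replicate 1 or 3, and 0.0511 under median centring, while Ldb1 reached 0.0708 and 0.0651 without adequate replicate 1 or 2 and 0.0674 without deficient replicate 3. Only Sox6 among the 10 was past the threshold in each of 22 alternative settings, with 0.0462 as its highest adjusted p.

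**Figure D1:**
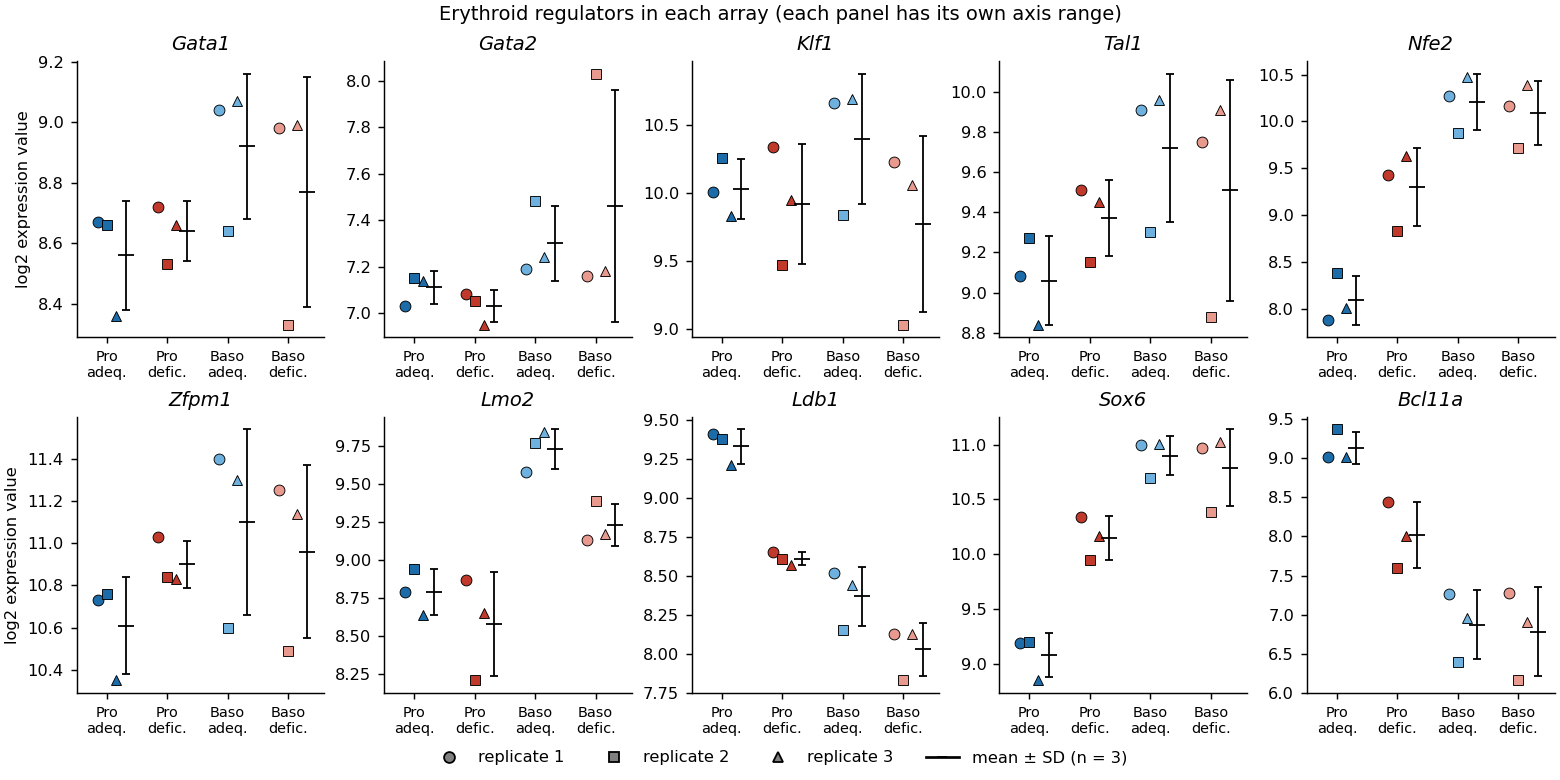
Deposited log2 expression value (vertical axis, with its own range in each panel) of the 10 regulators in the 12 arrays, by diet and stage; markers give the replicate number and bars the mean and SD of 3 arrays. In proerythroblasts Nfe2 and Sox6 lie higher and Ldb1 and Bcl11a lower on the deficient diet, with no overlap. Replicate 2 of both basophilic groups is the lowest point of its group for every gene shown except Gata2 and Lmo2.

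In basophilic erythroblasts none of the 10 genes passed the diet comparison. Over all genes 4 of 20187 passed, 0.0198%, with 0.00991% higher and 0.00991% lower, and 1303 had an unadjusted p under 0.05. Lmo2 and Ldb1 were the 2 members below that unadjusted level, and both were lower on the deficient diet in every array. Lmo2 read 9.58, 9.77 and 9.84 on the adequate and 9.13, 9.39 and 9.17 on the deficient diet. The groups were apart, but the log2 difference of -0.50 (SE 0.17, 95% interval -0.87 to -0.13) had a limma adjusted p of 0.529. Ldb1 read 8.52, 8.15 and 8.44 against 8.13, 7.83 and 8.13, and adequate replicate 2 lay only just above the deficient arrays. Its log2 difference was -0.34 (SE 0.14, 95% interval -0.64 to -0.04, adjusted p = 0.681). These 2 of 10 genes without overlap compare with 8.02% of all genes, 4.12% higher and 3.9% lower.

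The other 8 genes overlapped between the diets at the basophilic stage. Nfe2 read 10.27, 9.88 and 10.47 on the adequate and 10.16, 9.72 and 10.39 on the deficient diet, a log2 difference of -0.12 (SE 0.25, adjusted p = 0.954). Sox6 read 11.00, 10.70 and 11.01 against 10.97, 10.39 and 11.02, a log2 difference of -0.11 (SE 0.19, adjusted p = 0.954). In both genes replicate 2 was the lowest array of each diet. Bcl11a read 7.26, 6.39 and 6.96 against 7.28, 6.16 and 6.90 and differed by -0.09 (SE 0.31). Klf1 had the widest spread, at 10.66, 9.84 and 10.69 against 10.23, 9.03 and 10.06, and its log2 difference of -0.62 (SE 0.33, interval -1.35 to 0.11, adjusted p = 0.871) did not pass. Gata1, Gata2, Tal1 and Zfpm1 differed by -0.15, 0.15, -0.21 and -0.14 on the log2 scale. Without deficient basophilic replicate 2 the sign of all 4 turned, to 0.07, -0.13, 0.11 and 0.09. Without replicate 2 of both basophilic groups the differences were -0.07, -0.04, -0.11 and -0.16, and the sign of Gata2 turned. With the replicate number as a block within each stage, 1.44% of all genes passed and still none of the 10.

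Between the stages on the adequate diet, Nfe2, Sox6 and Lmo2 rose and Bcl11a and Ldb1 fell from proerythroblast to basophilic erythroblast. Each group enters a diet and a stage comparison, so these comparisons share arrays and are not independent of each other. Stage also coincides with the difference in array quality given above. Nfe2 was 4.34-fold, Sox6 3.54-fold and Lmo2 1.92-fold higher at the later stage, and Bcl11a was 4.8-fold and Ldb1 1.95-fold lower. These 5 of 10 genes, 3 higher and 2 lower, stand against 54.2% of all genes tested, 28.6% higher and 25.6% lower, so the share of members that passed was near the background. Gata1, Gata2, Klf1, Tal1 and Zfpm1 did not pass.

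Nfe2 lay at 7.88 to 8.38 in adequate proerythroblasts and at 9.88 to 10.47 in adequate basophilic erythroblasts, a log2 rise of 2.12 (SE 0.25, limma adjusted p = 5.55e-05). Sox6 went from 8.85 to 9.20 at the earlier stage to 10.70 to 11.01 at the later stage, a log2 rise of 1.82 (SE 0.19, adjusted p = 2.50e-05). Lmo2 read 8.79, 8.94 and 8.64 in proerythroblasts and 9.58, 9.77 and 9.84 in basophilic erythroblasts, a log2 rise of 0.94 (SE 0.17, adjusted p = 0.00129). In these 3 genes every basophilic array was above every proerythroblast array. Bcl11a went from 9.01 to 9.37 down to 6.39 to 7.26, a log2 change of -2.26 (SE 0.31, adjusted p = 1.64e-04). Ldb1 went from 9.21 to 9.41 down to 8.15 to 8.52, a log2 change of -0.96 (SE 0.14, adjusted p = 2.34e-04). All 5 genes passed in each of 22 alternative settings.

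Among the genes that did not pass, Tal1 came closest, with basophilic arrays at 9.91, 9.30 and 9.96 above all proerythroblast arrays at 9.08, 9.27 and 8.84. Its log2 difference was 0.66 (SE 0.26, 95% interval 0.08 to 1.24, adjusted p = 0.0517). The log2 differences of Gata1 (0.35, SE 0.19, adjusted p = 0.132), Zfpm1 (0.49, SE 0.24, adjusted p = 0.101) and Klf1 (0.36, SE 0.33, adjusted p = 0.359) were also positive. In all 4 of these genes basophilic replicate 2 was the lowest of its group, at 8.64 for Gata1 against 9.04 and 9.07 and at 9.84 for Klf1 against 10.66 and 10.69. Without replicate 2 of both basophilic groups 9 of the 10 genes passed, all but Gata2, where 68.2% of all genes did: Tal1 differed by 0.87 (adjusted p = 7.95e-04), Zfpm1 by 0.74 (0.00113), Gata1 by 0.49 (0.00322) and Klf1 by 0.64 (0.0273). Over the 22 alternatives the Gata1 difference ran from 0.14 to 0.61. It passed in 3 of them, with a lowest limma adjusted p of 0.00126. Without overlap between stages were 7 of the 10 genes, against 74% of all genes, 41.3% higher and 32.6% lower.

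On the deficient diet the same 5 genes passed between the stages in the same directions, and whether the size of any of them differed between diets is the interaction tested further on. Nfe2 was 1.73-fold, Lmo2 1.57-fold and Sox6 1.56-fold higher in basophilic erythroblasts, and Bcl11a was 2.36-fold and Ldb1 1.49-fold lower. The count of 5 of 10, 3 higher and 2 lower, compares with 56% of all genes, 31.1% higher and 25% lower. Nfe2 went from 8.83 to 9.63 up to 9.72 to 10.39, a log2 rise of 0.79 (SE 0.25, limma adjusted p = 0.0214). Deficient proerythroblast replicate 3 lay just below the lowest basophilic array. Sox6 went from 9.95 to 10.34 up to 10.39 to 11.02, a log2 rise of 0.64 (SE 0.19, adjusted p = 0.0187). Lmo2 read 8.87, 8.21 and 8.65 and then 9.13, 9.39 and 9.17, a log2 rise of 0.65 (SE 0.17, adjusted p = 0.0132).

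The genes that fell were Bcl11a and Ldb1. Bcl11a read 8.44, 7.60 and 8.01 there and 7.28, 6.16 and 6.90 in deficient basophilic erythroblasts, a log2 change of -1.24 (SE 0.31, adjusted p = 0.0111). Ldb1 read 8.65, 8.61 and 8.57 and then 8.13, 7.83 and 8.13, a log2 change of -0.58 (SE 0.14, adjusted p = 0.00944). Neither gene's stages overlapped. Gata1 (0.13, SE 0.19), Klf1 (-0.15, SE 0.33), Tal1 (0.14, SE 0.26) and Zfpm1 (0.06, SE 0.24) had log2 differences smaller than their errors, and Gata2 differed by 0.43 (SE 0.20, adjusted p = 0.0876). Without overlap were 6 of the 10 genes, against 66.5% of all genes, 36.8% higher and 29.6% lower.

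Of the calls on the deficient diet, that for Bcl11a held in each of 22 alternatives. Fitted on the 6 deficient arrays alone, 1 of the 10 genes passed, where 14.6% of all genes did, and Ldb1 was at an adjusted p of 0.0506; under quantile normalization Ldb1 was at -0.20 (0.152). Under median centring 3 of the 10 passed, where 47.4% of all genes did, with Nfe2 at 0.60 (adjusted p = 0.0985) and Sox6 at 0.45 (0.121); without deficient proerythroblast replicate 2, Nfe2 was at 0.56 (0.077) and Sox6 at 0.54 (0.06). Without replicate 2 of both basophilic groups Gata1 (0.35, adjusted p = 0.0204) and Tal1 (0.46, 0.0218) passed as well, and 7 of 10 genes did where 58.7% of all genes did. Over the 22 alternatives the Gata1 difference on the deficient diet ran from -0.06 to 0.53. It passed in 2 of them, with a lowest limma adjusted p of 0.00627.

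**Figure D2:**
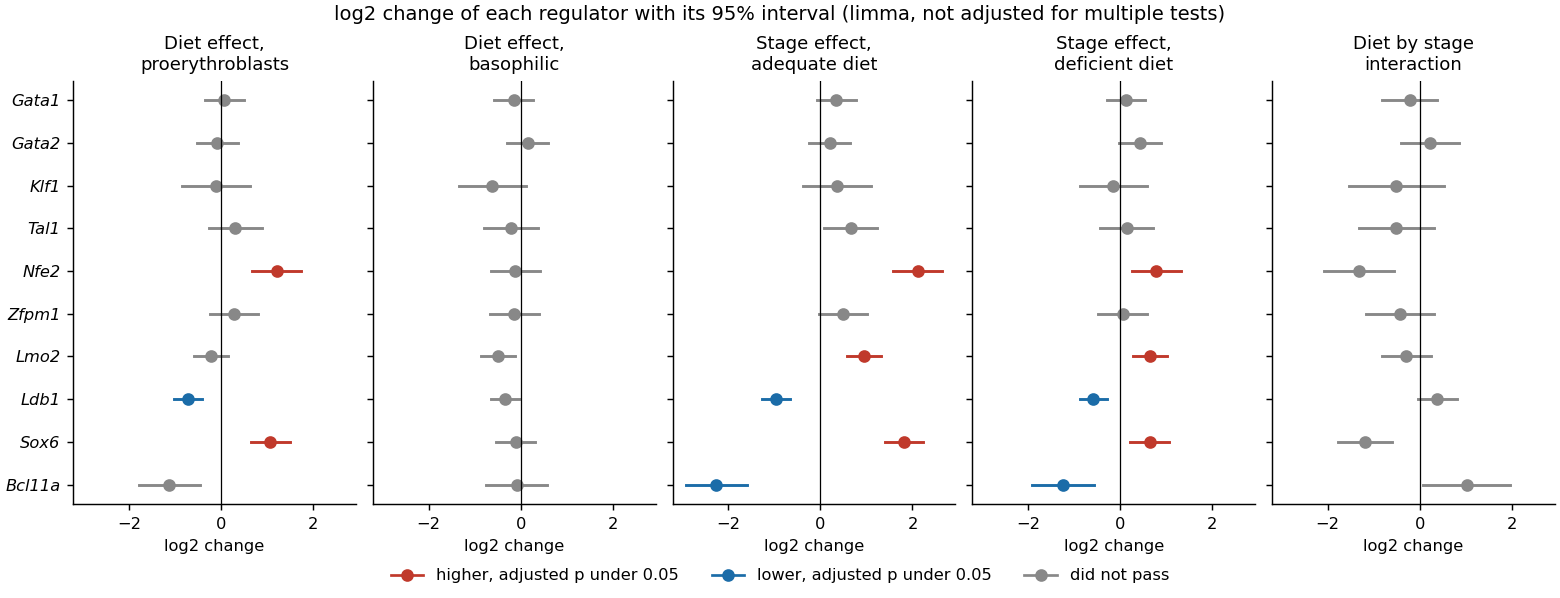
Log2 difference of the 10 regulators (horizontal axis) in the 4 comparisons of diet and stage and in their interaction, as points with 95% intervals from limma that are not adjusted for multiple tests; red and blue mark an adjusted p under 0.05. Diet differences are deficient minus adequate, stage differences are basophilic minus proerythroblast, and the interaction is the basophilic diet difference minus the proerythroblast one. Nfe2, Ldb1 and Sox6 are past the threshold in 3 of the 5 panels.

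Whether the diet difference itself changed with stage was tested by the interaction, the diet difference in basophilic erythroblasts minus that in proerythroblasts. The same value is the stage difference on the deficient minus that on the adequate diet. Since it compares the stages, stage and array quality cannot be told apart in the interaction either. None of the 10 genes passed in limma, where 0.302% of all genes did, 0.159% higher and 0.144% lower, and 1847 genes had an unadjusted p under 0.05. The members farthest from 0 were Nfe2, at -1.32 on the log2 scale (SE 0.35, adjusted p = 0.159), Sox6, at -1.18 (SE 0.27, adjusted p = 0.101), and Bcl11a, at 1.03 (SE 0.43, adjusted p = 0.477). With the replicate number as a block within each stage, Sox6 (adjusted p = 0.0224) and Nfe2 (0.0458) passed, where 2.92% of all genes did. Sox6 also passed without replicate 2 of both basophilic groups, at -1.08 (0.023). Ldb1 had an interaction of 0.38 (SE 0.19) and Lmo2 of -0.29 (SE 0.24), so a difference between stages in the size of the diet shift was not established for either. Tal1, Klf1, Zfpm1, Gata1 and Gata2 had interactions of -0.52, -0.51, -0.43, -0.22 and 0.23.

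By group mean, Nfe2, Sox6, Gata1, Tal1 and Zfpm1 ascended from adequate proerythroblasts through deficient proerythroblasts and deficient basophilic erythroblasts to adequate basophilic erythroblasts, while Ldb1 and Bcl11a descended in another order, with adequate before deficient basophilic erythroblasts. Nfe2 rose from 8.09 ± 0.26 (SD, n = 3) in adequate proerythroblasts to 9.30 ± 0.42 in deficient proerythroblasts, 10.09 ± 0.34 in deficient and 10.21 ± 0.30 in adequate basophilic erythroblasts. Sox6 followed with 9.08 ± 0.20, 10.15 ± 0.20, 10.79 ± 0.35 and 10.90 ± 0.18. In both genes the last pair of groups overlapped. Ldb1 was at 9.33 ± 0.11 in adequate and 8.61 ± 0.04 in deficient proerythroblasts, 8.37 ± 0.19 in adequate and 8.03 ± 0.17 in deficient basophilic erythroblasts. Bcl11a was at 9.13 ± 0.21, 8.02 ± 0.42, 6.87 ± 0.44 and 6.78 ± 0.57 in the same order, with overlap between the last pair. Deficient proerythroblasts thus had a mean between adequate proerythroblasts and both basophilic groups in all 7 of these genes, although for Gata1, Tal1, Zfpm1 and Bcl11a the diet difference in proerythroblasts did not pass.

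Lmo2 kept another order, with 8.58 ± 0.34 in deficient and 8.79 ± 0.15 in adequate proerythroblasts, which overlapped, then 9.23 ± 0.14 in deficient and 9.73 ± 0.13 in adequate basophilic erythroblasts. For Gata1 the means spanned 8.56 ± 0.18 in adequate proerythroblasts to 8.92 ± 0.24 in adequate basophilic erythroblasts, and neighbours in the order overlapped. Klf1 spanned 9.77 ± 0.65 in deficient to 10.40 ± 0.48 in adequate basophilic erythroblasts, with overlap throughout. Tal1 spanned 9.06 ± 0.22 to 9.72 ± 0.37 and Zfpm1 10.61 ± 0.23 to 11.10 ± 0.44, both lowest in adequate proerythroblasts and highest in adequate basophilic erythroblasts. Against these the medians of all genes tested shifted little, with log2 differences of 0.02 and 0.04 for diet at the earlier and later stage and 0.12 and 0.07 for stage on the adequate and deficient diet. The medians over the 10 members were 0, -0.14, 0.43 and 0.14 in the same comparisons.

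Gata2 was measured close to the level of control features and its differences are limited by that. It read 6.95 to 7.15 in the proerythroblast arrays and 7.16 to 8.03 in the basophilic arrays, and deficient basophilic replicate 2 was the highest. Of the 23 control features without a genomic target, 0 to 2 read at or above Gata2 in each proerythroblast array and 3 to 5 in each basophilic array. The highest control feature exceeded Gata2 by 0.95 at most, and Gata2 exceeded it by 0.33 at most. The deficient basophilic arrays were 7.16, 8.03 and 7.18, and the array at 8.03 also had the highest control median. Among the other members, Gata1, Tal1, Ldb1 and Bcl11a had up to 5, 3, 6 and 10 control features at or above them in some array, and Klf1, Nfe2, Zfpm1, Lmo2 and Sox6 had 0 in every array.

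**Figure D3:**
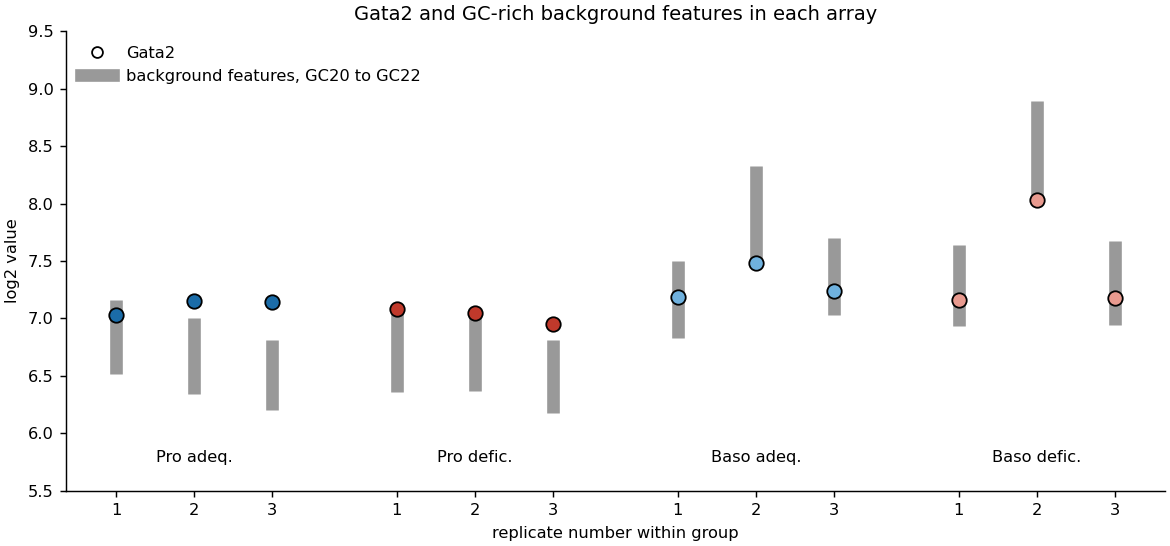
Log2 level (vertical axis) of Gata2 (circles) in each of the 12 arrays by group and replicate number, beside grey bars that join the control features named GC20 and GC22, which have no genomic target. Gata2 lies near or above the top of the bar in proerythroblasts, within the bar in basophilic erythroblasts, and moves up with it in replicate 2.

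Some of the genes that GATA1, TAL1 or KLF1 are known to activate rose in deficient proerythroblasts, where Gata1, Tal1 and Klf1 themselves did not pass. Of 34 such genes 30 were tested, Klf1 and Zfpm1 among them, and 14 rose, 0 fell and 16 did not pass, against the 1.27% higher and 2.75% lower of all genes. Their median log2 difference was 0.79, against 0.02 over all genes. E2f2, a cell cycle factor of the terminal red cell divisions, rose by 1.90 (SE 0.14, limma adjusted p = 4.69e-05), and Tmod1, which caps actin in the membrane skeleton, by 1.79 (SE 0.12, adjusted p = 3.49e-05). Slc4a1, the anion exchanger band 3, rose by 1.39 (SE 0.13) and Slc25a37, the mitochondrial iron importer mitoferrin, by 1.29 (SE 0.12), both at an adjusted p of 2.57e-04. The count was 9 to 20 when 1 array at a time was left out, lowest without deficient proerythroblast replicate 3 and highest without deficient basophilic replicate 2, and 22 without replicate 2 of both basophilic groups. The list of 9 red cell markers, which shares genes with it, averaged 10.47 to 10.78 in adequate and 11.23 to 11.43 in deficient proerythroblasts, and its part in the members' differences was not tested.

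Of 13 tested genes that fall as GATA1 takes over, Gata2 included, 3 fell and 0 rose in deficient proerythroblasts, against 2.75% lower and 1.27% higher of all genes, and the list's median log2 difference was -0.19. Kit, the stem cell factor receptor, had a mean log2 level of 9.10 in adequate and 6.92 in deficient proerythroblasts, and fell by 2.18 (SE 0.16, adjusted p = 4.69e-05). Myb, a progenitor transcription factor, fell by 2.06 (SE 0.19, adjusted p = 2.57e-04), and Cdk6, a cell cycle kinase, by 1.36 (SE 0.20, adjusted p = 0.0029). All 3 kept their calls in each of 22 alternatives. At the basophilic stage 0 genes of either list passed between diets, with medians of -0.09 for the activated and 0.07 for the repressed genes.

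From proerythroblast to basophilic erythroblast, 26 of the 30 activated genes rose and 0 fell on the adequate diet, where 28.6% of all genes were called higher and 25.6% lower, with a median log2 difference of 1.33 against 0.12 over all genes. On the deficient diet 16 rose and 0 fell, where 31.1% of all genes were called higher and 25% lower, with a median of 0.47 against 0.07, and 25 rose without replicate 2 of both basophilic groups and 11 under median centring. Bcl2l1, which protects late erythroblasts from death, rose by 2.93 (SE 0.17, adjusted p = 8.67e-07) on the adequate and by 1.68 (SE 0.17, adjusted p = 1.65e-04) on the deficient diet. Trim58, a ubiquitin ligase of late erythroblasts, rose by 1.82 (SE 0.22, adjusted p = 2.96e-04) on the deficient diet. Of the 13 repressed genes 7 fell and 1 rose on the adequate diet, and 5 fell and 1 rose on the deficient diet, beside the same shares of all genes. Cdk6 fell by 3.47 and 2.01, and Myb by 3.35 and 1.20, on the adequate and deficient diet. Lyl1, a TAL1 relative placed among the repressed genes, rose by 0.99 (SE 0.21, adjusted p = 0.00351) on the adequate diet.

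The interaction passed for 6 of the 30 activated genes, all negative, and for 2 of the 13 repressed genes, both positive, where 0.302% of all genes passed. The median over the activated genes was -0.92. Tmod1 had -1.88 (SE 0.16, adjusted p = 0.00221) and E2f2 -1.58 (SE 0.20, adjusted p = 0.00882), while Kit had 2.13 (SE 0.23, adjusted p = 0.00513) and Myb 2.15 (SE 0.27, adjusted p = 0.00852). The basophilic means of Kit and Myb were 5.73 to 6.34, where the highest control feature read 7.50 to 8.98, which limits a diet difference at that stage. The activated count was 13 with the replicate number as a block within each stage, 13 when both basophilic arrays of number 2 were dropped, and 3 to 9 with 1 array left out; it was 3 without adequate proerythroblast replicate 1, deficient proerythroblast replicate 3, adequate basophilic replicate 1 or 3, or deficient basophilic replicate 1.

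**Figure D4:**
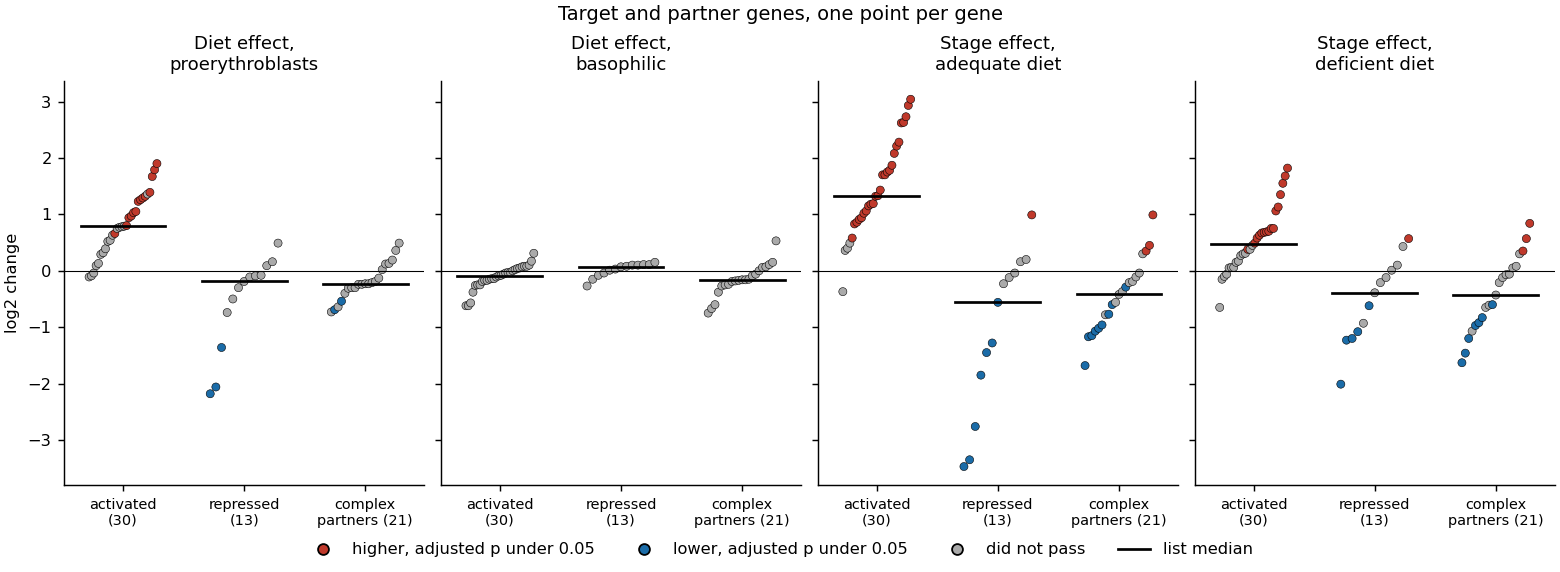
Log2 difference (vertical axis) of single genes, 1 point each, of 3 lists in the 4 comparisons of diet and stage: 30 genes activated by GATA1, TAL1 or KLF1, 13 genes repressed as GATA1 rises, and 21 partners of the GATA1-TAL1-LDB1 complex. Red and blue points passed an adjusted p of 0.05 and the bar is the list's median, which for activated genes is 0.79, -0.09, 1.33 and 0.47.

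Of 21 tested partners of the GATA1-TAL1-LDB1 complex, 2 fell and 0 rose in deficient proerythroblasts, against 2.75% lower and 1.27% higher of all genes, and their median log2 difference was -0.23. With 1 array left out the count that fell was 0 to 3, with 0 without adequate proerythroblast replicate 1 or 2, deficient proerythroblast replicate 2 or 3, or adequate basophilic replicate 3, and 1 without adequate proerythroblast replicate 3, deficient proerythroblast replicate 1 or replicate 1 of either basophilic group. Ssbp4, of the family that stabilises LDB1, fell by 0.69 (SE 0.16, adjusted p = 0.0318), and Cbfa2t3, the ETO2 corepressor of the complex, by 0.54 (SE 0.13, adjusted p = 0.0452). These calls were lost in 7 and 12 of 22 alternatives. From proerythroblast to basophilic erythroblast 9 partners fell and 3 rose on the adequate diet, where 25.6% of all genes were called lower and 28.6% higher, and 7 fell and 3 rose on the deficient diet, where 25% and 31.1% were. The count that fell was 3 to 11 on the adequate diet with 1 array left out, with 3 without adequate basophilic replicate 2 and 4 without adequate proerythroblast replicate 1. On the deficient diet it was 4 to 10, with 4 without deficient basophilic replicate 2 or any deficient proerythroblast array, and the count that rose was 1 to 4 and 1 to 3 on the 2 diets. It was 1 on both diets without adequate proerythroblast replicate 2, and on the deficient diet also without deficient proerythroblast replicate 2 or 3 or deficient basophilic replicate 1. The histone deacetylase gene Hdac2 fell by 1.68 and 1.63 and Mta1, of the NuRD corepressor, by 1.07 and 0.83. Cbfa2t3 rose by 0.84 (SE 0.13, adjusted p = 0.0014) between stages on the deficient diet.

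Embryonic globins, which SOX6 and BCL11A silence, were read beside their silencers. In the list of 14 tested partners and targets of that silencing, 1 gene fell in deficient proerythroblasts, the orphan receptor gene Nr2c1 by 0.62 (SE 0.15, adjusted p = 0.0404), a call lost in 10 of 22 alternatives, beside 2.75% of all genes. With 1 array left out, 0 genes of the list fell in 9 of 12 fits and 2 fell without deficient basophilic replicate 2. Hbb-y, an embryonic beta-like globin, rose between stages by 1.66 (SE 0.30, adjusted p = 0.00132) on the adequate and 1.36 (SE 0.30, adjusted p = 0.00766) on the deficient diet. Hbb-bh1, another, rose by 1.16 and 1.54 and the embryonic alpha-like Hba-x by 0.74 and 0.74. Over the 12 arrays Hbb-y lay at 5.11 to 8.03 and Hbb-bh1 at 4.71 to 6.97. The median of the control features was 3.31 to 3.53 at the earlier and 3.63 to 4.70 at the later stage. The highest control feature read 6.81 to 7.16 and 7.50 to 8.98 in the arrays of these stages. Hbb-bh1, Hba-x (5.57 to 6.73) and Nr2c1 (5.15 to 6.19) lay below it in every array. The rises of these globins and the fall of Nr2c1 are therefore limited by closeness to the control features. The part of the control features in these differences was not tested. Over the whole list 3 genes rose and 5 fell on the adequate diet, and 3 rose and 4 fell on the deficient diet, where 28.6% and 31.1% of all genes were called higher and 25.6% and 25% lower. With 1 array left out, 2 to 7 genes fell on the adequate diet, with 2 without adequate proerythroblast replicate 1 or adequate basophilic replicate 2. On the deficient diet 2 to 8 fell, with 2 without deficient basophilic replicate 2 or any deficient proerythroblast array, and 7 and 8 without deficient basophilic replicate 1 and 3.

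Among 19 other red cell transcription factors, 1 rose and 1 fell in deficient proerythroblasts, against 1.27% higher and 2.75% lower of all genes, and 3 rose and 2 fell without deficient basophilic replicate 2. The riser was E2f2, given above, and Nfia, a factor of early erythroid commitment, fell by 1.68 (SE 0.17, adjusted p = 6.39e-04). Between stages 6 rose and 7 fell on the adequate diet, beside 28.6% higher and 25.6% lower of all genes, and 5 rose and 6 fell on the deficient diet, beside 31.1% and 25%. The counts that fell were 4 to 7 and 3 to 7 with 1 array left out, lowest without adequate proerythroblast replicate 1 or 3 or adequate basophilic replicate 2 on the adequate diet, and without deficient proerythroblast replicate 1 or 2 on the deficient diet. Foxo3, which drives late maturation and antioxidant genes, rose by 1.67 (SE 0.15) and 1.15 (SE 0.15), and Tfdp2, a partner of E2F factors, by 2.18 (SE 0.17) and 1.26 (SE 0.17). Nfia fell by 2.64 and 1.27 over the same step.

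Some members are also used by other blood cells, so the markers of those cells are given. Mast cells, which rely on GATA2, and basophilic granulocytes shared a list of 11 features with a mean log2 level of 4.36 to 5.14 over all arrays. The first genes of that list, Cpa3 (3.56 to 4.62), Mcpt8 (4.47 to 5.81) and Ms4a2 (3.13 to 3.75), did not pass the filter on dim features. Of the 4 genes of this list that were tested, Hdc, Prss34, Tpsab1 and Tpsb2, 0 passed in either diet comparison. Tpsb2 rose between stages by 0.57 (SE 0.19, adjusted p = 0.0308) on the adequate and 0.73 (SE 0.19, adjusted p = 0.0135) on the deficient diet, and Tpsab1 by 0.51 (SE 0.17, adjusted p = 0.0292) on the deficient diet. Of all genes 28.6% and 31.1% were called higher on these diets. Tpsb2 (5.49 to 6.92) and Tpsab1 (5.01 to 6.08) read below the highest control feature of the basophilic arrays (7.50 to 8.98), which limits these rises. For B cells and plasmacytoid dendritic cells, which express Bcl11a, 11 genes averaged 6.94 to 7.95 in adequate proerythroblasts, 6.95 to 7.42 in deficient proerythroblasts, 6.80 to 7.18 in adequate and 6.74 to 6.97 in deficient basophilic erythroblasts. Of these 11 genes Bst2 fell by 1.20 (SE 0.24, adjusted p = 0.0144) in deficient proerythroblasts and 10 did not pass, against 2.75% lower and 1.27% higher of all genes. Cd79a read 7.22 to 8.23 and Cd79b 7.02 to 8.47 over the 12 arrays. The 12 neutrophil markers averaged 6.74 to 7.96 in adequate and 7.14 to 7.94 in deficient proerythroblasts, and 5.94 to 6.39 and 6.26 to 6.78 in basophilic erythroblasts of the same diets. Of these 12 markers 1 rose and 0 fell in deficient proerythroblasts, against 1.27% higher and 2.75% lower of all genes, with log2 differences from -0.41 to 2.30. Between stages 7 of them fell and 1 rose on the adequate diet, where 25.6% of all genes were called lower and 28.6% higher, and 6 fell and 0 rose on the deficient diet, where 25% and 31.1% were. Megakaryocyte markers, relevant to Nfe2, Gata1 and Zfpm1, averaged 6.20 to 6.44 in proerythroblasts and 6.58 to 6.86 in basophilic erythroblasts. Of 8 tested Itga2b rose in deficient proerythroblasts by 0.75 (SE 0.17, adjusted p = 0.0325) while 7 did not pass, against 1.27% higher and 2.75% lower of all genes. The mean of Itga2b in adequate proerythroblasts was 6.73, where the highest control feature read 6.81 to 7.16. The part of these cells in the members' differences was not tested.

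Over the 12 arrays, the genes most alike to Gata1 by Pearson correlation were Sh3tc2 (0.98), Tal1 (0.968), Ermap (0.967), Rnf139 (0.96) and Mfsd2b (0.957). For Klf1 they were Trmt12 (0.963), Cars (0.951), Mvb12b (0.946), Dnase1l1 (0.946) and Dck (0.945). For Gata2 they were Trim45 (0.984), Mier2 (0.983), Slc35c1 (0.982), Slc25a22 (0.982) and Trip10 (0.981), which dropped to between 0.752 and 0.889 over the 10 arrays without replicate 2 of both basophilic groups. Among the members the closest pairs were Nfe2 with Sox6 (0.979) and Gata1 with Tal1 (0.968). The arrays share group, stage and array quality, so these values describe these 12 arrays only.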

How the data were processed

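Total RNA (5 ng per array, biotin labelled with the WT Pico kit, per the labels' protocols) of sorted spleen erythroblasts was read on 12 Affymetrix arrays. The deposited values are log2 levels, and the submitters' processing notes name Affymetrix Expression Console; its version, summarisation and normalization are not given in the sources used here. The depth of an array is not a count, and 3 arrays per group limit the precision. Of 72688 features, 31435 had 1 gene symbol in the platform annotation, 1315 several and 39938 none, and 1148 symbols were updated. For 501 genes with several features the brightest by mean was used. The 20187 genes above 5.3, the median of all values, on at least 3 arrays were tested.

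All genes were fitted in limma 3.58.1 (R 4.3.3; lmFit, a mean per group over 12 arrays, contrasts.fit, eBayes), two-sided, with Benjamini-Hochberg adjustment over all genes tested and a threshold of 0.05. Genes are said to have risen, fallen or changed only past it. The fit was tested on simulated data. The 10 members and all lists were chosen with earlier results of these data known. Every member is named in each comparison, and from the other lists at most 4 genes with the smallest adjusted p among those that passed. The most alike genes are the 5 with the highest correlation for Gata1, Gata2 and Klf1, without predicted genes. Alternatives were no filter or a stricter filter (5.77), quantile normalization, median centring, a trended variance, the mean of a gene's features, only the arrays compared, replicate blocks, leaving out each array, and leaving out both basophilic arrays numbered 2. The random replicate block for the stage effects was chosen after seeing the data.

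Within a stage, arrays of the 2 diets with the same replicate number deviated together from their group means in all 6 pairs (correlation 0.166 to 0.782). Pairs with different numbers ran from -0.76 to 0.598. Adequate basophilic replicate 1 with deficient replicate 3 was at 0.598 and 3 with 1 at 0.513, beside 0.54 for 3 with 3. Whether the numbers pair the diets was therefore not settled. The main fit has no block, and the block within each stage is an alternative. Across all groups 12 of 18 same-number pairs were over 0.1.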

Additional observations from a re-analysis of the deposited data

Results flagged for a closer look

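In the target and factor lists, 9 genes had a diet difference that differed between the stages by the interaction test in limma (adjusted p under 0.05), 7 of them among the at most 4 with the smallest adjusted p in a list. The other 2, named after their values were seen, were Alas2 at -1.67 (SE 0.27, adjusted p = 0.0364) and Fech at -1.18 (SE 0.21, adjusted p = 0.0461). E2f2 had an interaction of -1.58 on the log2 scale (SE 0.20, adjusted p = 0.00882), Tmod1 of -1.88 (SE 0.16, 0.00221) and Slc25a37 of -1.39 (SE 0.17, 0.00743). Slc4a1 had -1.37 (SE 0.18, 0.0131), a call that 5 of 21 alternatives lost. Kit had 2.13 (SE 0.23, 0.00513) and Myb 2.15 (SE 0.27, 0.00852). Nfia had 1.36 (SE 0.25, 0.0483), and 7 of 21 alternatives kept its call. In adequate and deficient basophilic erythroblasts the means were 6.34 and 6.30 for Kit, 5.73 and 5.83 for Myb, and 6.50 and 6.19 for Nfia. The highest control feature read 7.50 to 8.98 in those arrays. A diet difference of these genes at that stage is limited by this, and its part in the interactions was not tested. The calls for E2f2, Tmod1, Slc25a37, Kit and Myb were kept in all 21. In all of these interactions stage and array quality cannot be told apart.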

How the results depend on the processing

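The count of members past the threshold ranged from 1 to 4 in the diet comparison of proerythroblasts, 5 to 8 for stage on the adequate diet, 3 to 6 for stage on the deficient diet and 0 to 1 for the interaction when 1 array was left out. The count of 3 in proerythroblasts was 1 without adequate replicate 1 or deficient replicate 3. For stage on the adequate diet it was 8 under quantile normalization, 8 without deficient basophilic replicate 2 and 9 without both basophilic arrays of number 2. For stage on the deficient diet it was 3 under median centring, 3 without deficient proerythroblast replicate 2 and 1 with only the arrays compared. For the interaction it was 2 with the replicate number within each stage as a block, 1 without both basophilic arrays of number 2 and 1 without deficient basophilic replicate 2. The block within each stage changed, among the members, the calls for Bcl11a in proerythroblasts and for Nfe2 and Sox6 in the interaction. Of 13 member values past the threshold, 7 stayed past it in every alternative, and none of the 13 changed sign. Of 50 member values 15 changed sign somewhere, and none of them had passed. Under median centring Gata1 was -0.01 for diet in proerythroblasts, Gata2 -0.01 for stage on the adequate diet, and Gata1 -0.06, Tal1 -0.05 and Zfpm1 -0.13 for stage on the deficient diet. Klf1 for stage on the deficient diet was 0.18 under quantile normalization and 0.22 without both basophilic arrays of number 2, which also put Gata2 at -0.04 for diet in basophilic erythroblasts. With 1 array left out, Gata1 ranged from -0.03 to 0.13 and Klf1 from -0.32 to 0.11 for diet in proerythroblasts. For diet in basophilic erythroblasts the ranges were -0.29 to 0.07 for Gata1, -0.13 to 0.30 for Gata2, -0.42 to 0.11 for Tal1, -0.28 to 0.07 for Nfe2, -0.39 to 0.09 for Zfpm1, -0.22 to 0.09 for Sox6 and -0.34 to 0.22 for Bcl11a. For stage on the deficient diet they were -0.38 to 0.22 for Klf1, -0.06 to 0.46 for Tal1 and -0.09 to 0.29 for Zfpm1, and for the interaction -0.05 to 0.38 for Gata2. The cause was not tested. Among all genes the share of calls that were higher moved from 31.5% to 16.9% under median centring for diet in proerythroblasts, from 52.8% to 26.3% (36.2% under quantile normalization) for stage on the adequate diet, from 55.5% to 36.6% for stage on the deficient diet, and from 52.5% to 30.4% under quantile normalization for the interaction. Median centring moved the median of all genes from 0.12 to -0.09 and from 0.07 to -0.12 in the stage comparisons. All-gene calls for diet in proerythroblasts were 256 higher and 556 lower, and 815 and 1423 with the within-stage block; in basophilic erythroblasts 2 and 2, and 100 and 190; for the interaction 32 and 29, and 305 and 285. Gata2, and Bcl11a at the basophilic stage, are limited by their closeness to the control features.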
